A study of Mus musculus with 9 samples.

Results

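Mac1+ bone marrow cells of mice that carried Rag1Cre together with floxed Ezh2 and Runx1 alleles and a Flt3 ITD allele were compared with Mac1+ cells of mice that carried the same floxed alleles and the Flt3 ITD allele without Cre. The first group, called DKOITD, was Ezh2 fl/fl and Runx1 fl/fl, Rag1Cre+, with Flt3 ITD/+ (n = 4 libraries). The second group, called ITD, was Ezh2 fl/fl and Runx1 fl/fl with Flt3 ITD/+ (n = 2 libraries), so Rag1Cre and the deletion it drives are what the labels set between them. All mice were C57BL/6, and the labels give no age, sex or treatment. The reference group, called WT, was Ezh2 fl/fl and Runx1 fl/fl with neither Cre nor ITD (n = 3 libraries); its values stand beside the others. All genes with at least 1 RPKM in at least 2 of the 9 libraries were compared, which kept 10868 of the 23420 gene symbols in the deposited table. RPKM is a read count per gene divided by gene length and by a measure of library size. Each library was made with Smart-seq2, a full-length RNA sequencing method, from 100 cells sorted by flow cytometry.

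Flt3 is a receptor kinase of early blood progenitors and dendritic cells, and its internal tandem duplication (ITD) makes it signal without its ligand. Ligand-driven Flt3 signalling is known to expand dendritic cells from marrow progenitors. Ezh2 is the catalytic subunit of PRC2, a polycomb complex that silences developmental genes by methylating histone H3. Runx1 is a DNA-binding factor needed for the balance of myeloid and lymphoid cells. Rag1Cre follows the activity of the Rag1 gene in early lymphoid progenitors, so Mac1+ cells in which the floxed alleles were recombined would descend from cells that once expressed Rag1. Mac1 is the integrin αM chain, encoded by Itgam, and is carried by neutrophils and monocytes and by many dendritic cells. The share of cells in which deletion took place was not analysed here, and whether the libraries of a group came from different mice is not stated in the labels.

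Depth, recovered as whole reads from the RPKM values, was between 2825732 and 13301867 reads in DKOITD and was 5108022 and 13744892 in the ITD libraries. The DKOITD libraries had more genes above 0, 11284 to 11764 against 10393 and 10480 in ITD. The number of reads by which the deposited RPKM were divided was 1.13 to 1.44 times the recovered reads in DKOITD and 0.919 and 0.853 times in ITD, so the columns are not each scaled to their own reads. S100a8 and S100a9, the calprotectin subunits of neutrophils, took 1.60% to 9.99% of reads in DKOITD and 20.6% in each ITD library. Of the defining markers of other cell types, the summed RPKM of 3 NK markers was at most 1.5 and that of 3 basophil and mast cell markers at most 3.26 in DKOITD, and both were 0 in ITD. The sum of 3 T cell markers was at most 4.36 in DKOITD and 17.6 and 2.44 in ITD, with Cd3e and Cd3g at 0. The sum of 3 B cell markers was 42.7 to 70.7 in DKOITD and 7.65 and 23.2 in ITD, and nearly all of it came from Cd79b. The sum of 4 erythroid markers was at most 1.28 in DKOITD and was 0 and 2696 in ITD.

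The genes named in the alleles were read first. Ezh2 (chr6:47530139-47595341, mm10) was measured at 18.1, 1.54, 8.04 and 10.2 RPKM in DKOITD libraries 1 to 4 and at 12.9 and 18.99 in the ITD libraries, so the groups overlapped. Its log2 difference, on the log2(RPKM + 1) scale used throughout, was -1.0 ± 0.78 (standard error, limma, adjusted p = 0.585). In WT, Ezh2 was at 9.69, 2.05 and 12.4 RPKM. Runx1 (chr16:92601466-92826149) was at 16.4, 14.9, 17.6 and 10.4 RPKM in DKOITD and at 4.42 in both ITD libraries. The groups did not overlap and every DKOITD library lay above ITD, but the limma test did not pass (1.52 ± 0.52, adjusted p = 0.179). These values count reads over the whole gene and do not resolve the floxed exons, so they do not check the deletion. Flt3 was at 34.5, 26.1, 39.2 and 8.80 RPKM in DKOITD and at 0 and 10.4 in ITD (2.88 ± 0.86, adjusted p = 0.125), so DKOITD 4 lay within the ITD range. Itgam, the gene of the sorting marker, was at 10.98, 33.3, 24.8 and 39.0 RPKM in DKOITD and at 78.1 and 97.3 in ITD, with 4 of 4 DKOITD libraries below both (-1.79 ± 0.46, adjusted p = 0.0863). Rag1 was listed at 0 in all 6 libraries.

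With a linear model across all kept genes (limma with a trend, two-sided, Benjamini-Hochberg adjusted p under 0.05), 23 genes differed between DKOITD and ITD, 0.212% of those tested. Of these, 17 genes were higher in DKOITD (0.156%) and 6 were lower (0.0552%). Genes of dendritic cell maturation (Ccr7, Ccl22, Tnfsf9) and the lectin Clec10a were among the higher ones, and the granulocyte genes Cd63 and Hk3 among the lower ones. At an unadjusted p under 0.05, 978 genes were higher (9.0%) and 723 lower (6.65%). The groups did not overlap for 3406 genes (31.3%), 1880 of them higher in DKOITD (17.3%) and 1526 lower (14.0%). The median difference over all kept genes was 0.11 on the log2 scale.

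The set of 23 genes rests on few libraries. With DKOITD 3 left out no gene passed in limma (689 higher and 539 lower at an unadjusted p under 0.05), and with ITD 2 left out none did (651 and 417). With DKOITD 1 left out 1 gene passed (Plxdc2, higher), and with ITD 1 left out 1 gene passed that is not among the 23 (Lsm4, higher, named after its value was seen). Without DKOITD 4, 61 genes were higher and 96 lower, including all 23. Leaving out WT 1, WT 2 or WT 3 gave 26, 30 and 11 higher genes and 6, 12 and 5 lower, and leaving out DKOITD 2 gave 23 and 3. The sums of RPKM were 442684 to 725674 in DKOITD and 1134460 and 1216172 in ITD, and scaling each column to the same sum gave 1561 higher and 40 lower genes and moved the median difference of all genes to 0.97. Scaling to the recovered reads gave 248 and 26 with a median of 0.56. Of the 23 genes, from 0 to 23 passed under each of the 24 alternatives that were run, and 5 alternatives kept none of them: voom, the term for the series of label numbers described next, and the fits without DKOITD 3, ITD 1 or ITD 2.

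**Figure D1:**
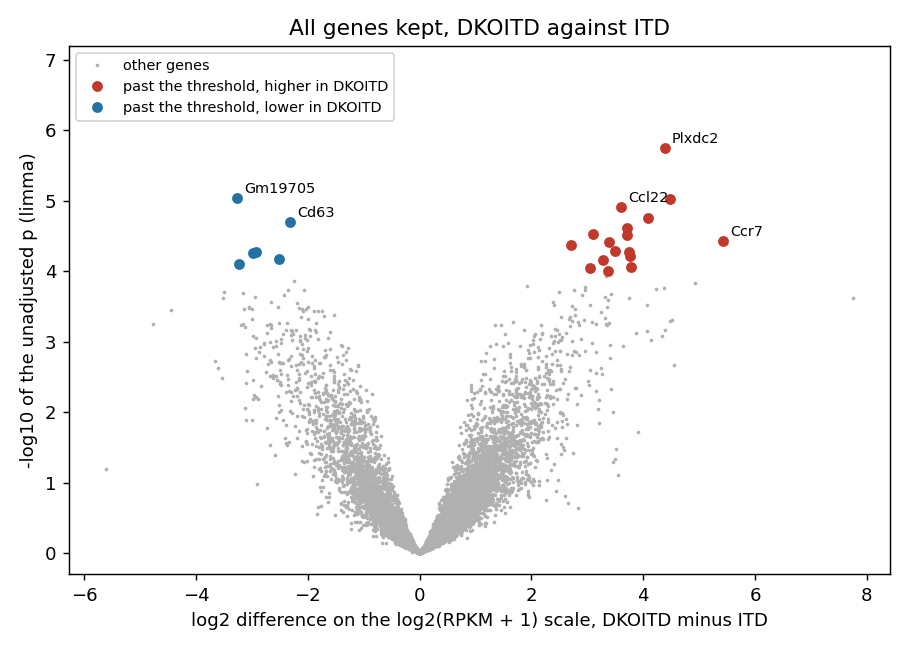
Each point is 1 of the 10868 kept genes, with the log2 difference DKOITD minus ITD on the log2(RPKM + 1) scale on the x axis and -log10 of the unadjusted limma p on the y axis. The 17 genes past the threshold and higher in DKOITD are red and the 6 lower ones are blue, and Plxdc2 has the smallest p.

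The labels carry the numbers 228, 267, 274 and 388 for DKOITD 1 to 4 and 385 and 392 for ITD, with no statement of what they count, so only DKOITD 4 has a number in the range of the ITD and WT libraries (385 to 393). With the number series (below or above 300) as a term in the fit, that term takes up DKOITD 1 to 3. The difference then rests on DKOITD 4 alone against the ITD libraries, 4.23 for Plxdc2 and -0.58 for Ezh2. That fit therefore cannot separate the genotype from the number series. DKOITD 4 was the DKOITD library nearest to ITD for 18 of the 23 genes (78.3%), for 40.7% of the genes whose groups did not overlap and for 32.3% of all kept genes. Its Pearson correlation with the ITD libraries across genes, which are not independent replicates, was 0.880 and 0.882, against 0.811 to 0.853 for DKOITD 1 to 3. DKOITD 4 correlated more closely with DKOITD 1 to 3 themselves, at 0.909, 0.893 and 0.905. For the higher genes the median difference from the ITD mean was 3.03 in DKOITD 4 and 3.91 in DKOITD 1 to 3, and for the lower genes -2.29 and -3.01. These genes were called with DKOITD 4 in the fit and their groups do not overlap, so the side of ITD on which it lies is fixed by their choice.

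**Figure D2:**
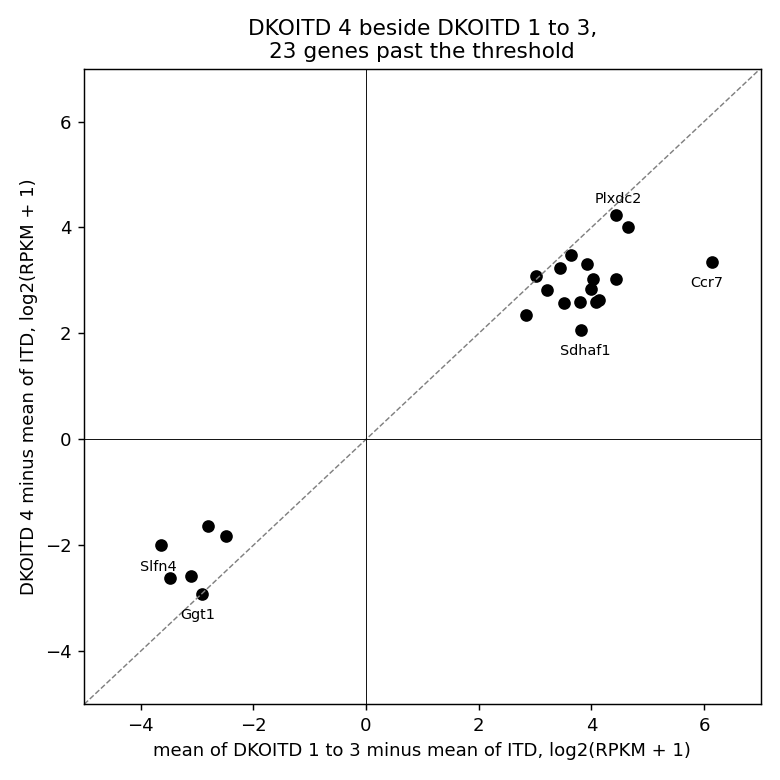
For the 23 genes past the threshold, the difference of the mean of DKOITD 1 to 3 from the ITD mean (x axis) is set against the difference of DKOITD 4 alone (y axis), both on the log2(RPKM + 1) scale, with the dashed line marking equal values. Every point has the same sign on both axes, which the choice of the genes fixes. Most points lie nearer to 0 in DKOITD 4, Ccr7 by the widest margin.

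Promoter windows from RefSeq (GRCm38.p6, 250 bases before to 50 after a transcript start) were read because Runx1 encodes a DNA-binding factor and Flt3 signals through STAT factors. They were found for 14 of the 23 genes, in 23 windows. The RUNX motif TGTGGT, on either strand, was in 4 of the 23 windows (17.4%), against 13.1% of 10265 windows of the kept genes and 16.8% of 32851 windows in all. The STAT motif TTCNNNGAA, which reads the same on both strands, was in 0 of 23 windows, against 7.08% and 8.30%. The windows with a RUNX match belong to Hk3, Ggt1 and P2ry10 (both of its windows). The stretches printed here show the match positions in a gene that was lower (Hk3) and one that was higher (P2ry10) in DKOITD, beside Ccl22, which was higher and has no match. Capitals mark TGTGGT or its reverse complement, and each stretch is written 5′ to 3′ on the gene's strand. The stretch of Hk3 (chr13:55021381-55021635, minus strand) runs 5 bases past the start, and those of P2ry10 (chrX:107089083-107089332, plus strand) and Ccl22 (chr8:94745434-94745683, plus strand) end before it.
Hk3: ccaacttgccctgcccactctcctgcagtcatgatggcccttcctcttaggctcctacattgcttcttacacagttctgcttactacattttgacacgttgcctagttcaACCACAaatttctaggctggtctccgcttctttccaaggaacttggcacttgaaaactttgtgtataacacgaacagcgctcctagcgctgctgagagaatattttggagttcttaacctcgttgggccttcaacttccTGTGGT
P2ry10: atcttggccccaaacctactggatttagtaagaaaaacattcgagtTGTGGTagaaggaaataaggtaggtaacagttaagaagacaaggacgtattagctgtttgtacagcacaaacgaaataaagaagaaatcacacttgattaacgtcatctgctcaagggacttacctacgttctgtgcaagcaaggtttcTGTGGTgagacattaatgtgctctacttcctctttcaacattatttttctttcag
Ccl22: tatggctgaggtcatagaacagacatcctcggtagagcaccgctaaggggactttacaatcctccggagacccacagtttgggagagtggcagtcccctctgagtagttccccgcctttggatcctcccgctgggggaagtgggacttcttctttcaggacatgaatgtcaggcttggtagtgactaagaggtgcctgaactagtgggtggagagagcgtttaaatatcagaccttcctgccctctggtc
The first bases of the matches are at -140 and -1 in Hk3 and at -204 and -55 in P2ry10, counted with the first transcribed base as 0. A match describes these letters only.

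**Figure D3:**
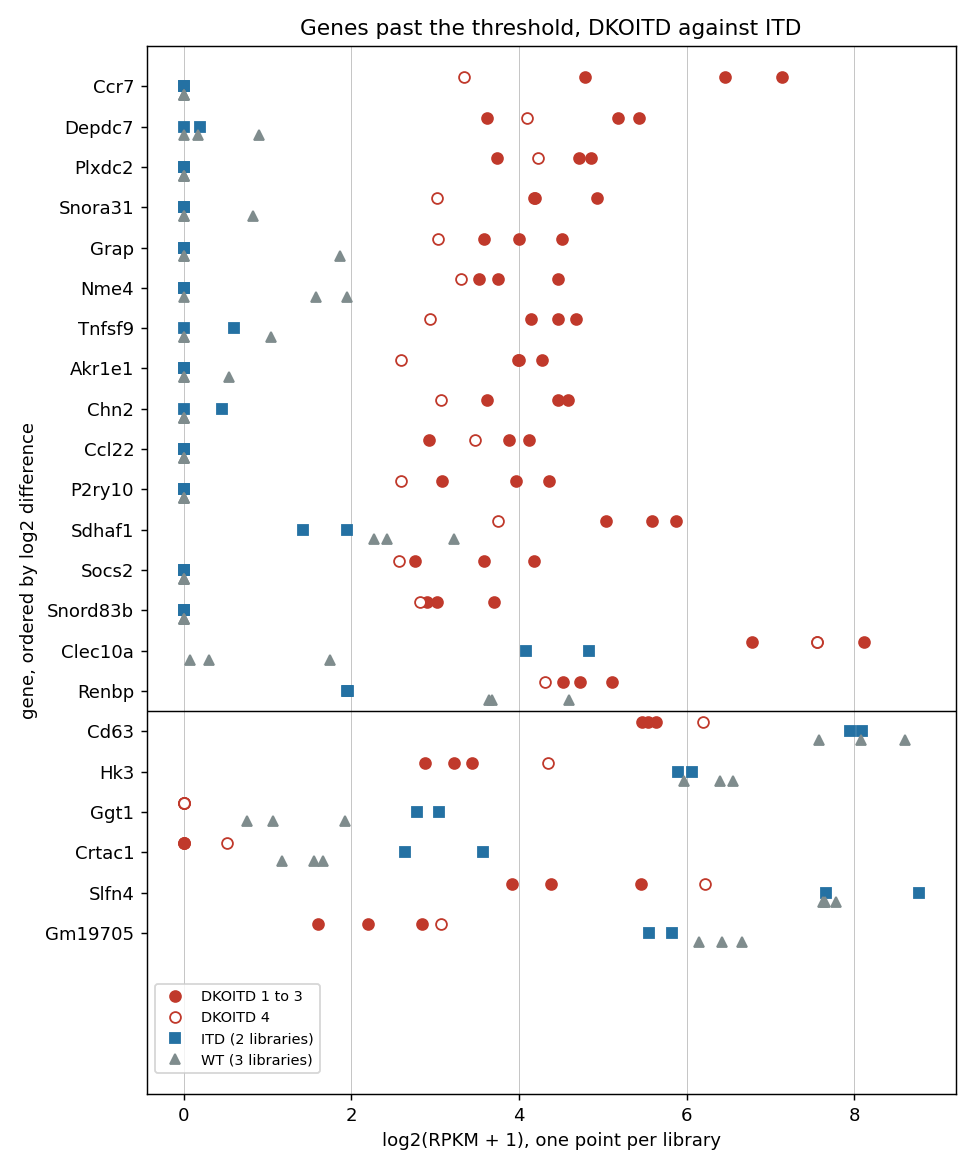
The log2(RPKM + 1) of 22 of the 23 genes past the threshold is plotted per library, ordered by the log2 difference, with 16 higher genes above the line and the 6 lower genes below it. Red circles are DKOITD libraries (DKOITD 4 open), blue squares ITD and grey triangles WT, and 10 of the 16 higher genes shown are at 0 in both ITD libraries.

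Genes of dendritic cell maturation stood among those that rose. Ccr7 (chr11:99144196-99155077), the receptor that guides mature dendritic cells to lymph nodes, was at 140.1, 26.7, 87.0 and 9.19 RPKM in DKOITD and was listed at 0 in both ITD and all WT libraries. DKOITD 1 and 3 were high and DKOITD 4 low, with no overlap with ITD (5.44 ± 0.86, adjusted p = 0.0372, limma). Where a group is listed at 0, the size of the difference depends on the pseudocount of 1. Ccl22 (chr8:94745590-94751699), a chemokine of mature dendritic cells that attracts Ccr4-bearing T cells, was at 6.64, 16.3, 13.7 and 10.1 RPKM in DKOITD and listed at 0 in ITD and WT (3.60 ± 0.51, adjusted p = 0.0334). The reads behind these Ccl22 values numbered 145, 108, 268 and 274. Tnfsf9 (chr17:57105325-57107757), the ligand of a costimulatory receptor of T cells, was at 16.6, 24.7, 21.0 and 6.67 RPKM against 0.520 and 0 (3.75 ± 0.62, adjusted p = 0.0372). Socs2 (chr10:95385362-95417180), a cytokine-induced inhibitor of cytokine receptors and a target of STAT5, was at 17.1, 5.78, 11.03 and 4.95 RPKM against 0 in ITD and WT (3.28 ± 0.56, adjusted p = 0.0393). In these 4 genes the groups did not overlap, and DKOITD 4 was the lowest DKOITD library in all but Ccl22. In bulk samples such as these, more cells of a type and more RNA per cell cannot be told apart.

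Clec10a, P2ry10 and Plxdc2, which encode surface proteins, also rose. Clec10a (chr11:70156197-70170834), a galactose-binding lectin of dendritic cells and macrophages, had the highest level in DKOITD of the called genes at 186, 109, 276 and 186 RPKM, against 15.9 and 27.6 in ITD and 2.35, 0.236 and 0.0575 in WT. The difference from ITD was 3.04 ± 0.53 (limma, adjusted p = 0.044). ITD lay between the other groups, with a difference of 3.75 from WT that did not pass (adjusted p = 0.0552). P2ry10 (chrX:107088492-107104974), a receptor of lysophosphatidylserine, was at 14.6, 7.45, 19.6 and 5.03 RPKM against 0 in ITD and WT (3.50 ± 0.57, adjusted p = 0.0372). Plxdc2 (chr2:16356304-16755839), a transmembrane protein, was at 12.3, 25.2, 28.0 and 17.8 RPKM against 0 in all 5 ITD and WT libraries and had the smallest p (4.38 ± 0.51, adjusted p = 0.0192). Plxdc2 stayed past the threshold in 19 of the 24 alternatives, more than any other of the 23 genes.

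Grap, Chn2, Depdc7, Akr1e1, Nme4, Sdhaf1 and Renbp also rose. Grap (chr11:61653265-61672784), an adaptor of the Grb2 family that links receptors to Ras, was at 10.9, 15.1, 21.8 and 7.18 RPKM in DKOITD and 0 in ITD (3.78 ± 0.66, limma, adjusted p = 0.044). Chn2 (chr6:54039554-54301810), a GTPase-activating protein for Rac, was at 23.1, 11.3, 21.1 and 7.43 RPKM against 0 and 0.376 (3.71 ± 0.56, adjusted p = 0.0364). Grap and Chn2 both had their lowest DKOITD value in DKOITD 4, above both ITD libraries. Depdc7 (chr2:104721784-104742878), a DEP domain protein, was at 42.3, 11.3, 35.2 and 16.2 RPKM against 0 and 0.149 (4.48 ± 0.62, adjusted p = 0.0334). Akr1e1 (chr13:4590750-4609174), an aldo-keto reductase, was at 18.4, 14.9, 15.05 and 5.03 RPKM against 0 in ITD (3.71 ± 0.58, adjusted p = 0.0364). Nme4 (chr17:26091734-26095602), the mitochondrial nucleoside diphosphate kinase, was at 12.5, 10.5, 21.1 and 8.89 RPKM against 0 in ITD (3.76 ± 0.63, adjusted p = 0.0384). Akr1e1 and Nme4 again had their lowest DKOITD value in DKOITD 4, and Depdc7 in DKOITD 2. Sdhaf1 (chr7:30321406-30323895), an assembly factor of succinate dehydrogenase, was at 31.9, 47.2, 57.8 and 12.4 RPKM against 2.86 and 1.68 (3.38 ± 0.60, adjusted p = 0.0471). Renbp (chrX:73922121-73930850), an epimerase of amino sugar metabolism, was at 25.6, 33.6, 22.1 and 18.8 RPKM against 2.86 and 2.89 in ITD and 23.3, 11.53 and 11.8 in WT. Renbp rose against ITD (2.72 ± 0.44, adjusted p = 0.0372), and its difference from WT did not pass (0.69, adjusted p = 0.246).

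Another 2 genes that rose are small nucleolar RNA genes read from few reads. Snora31 (chr14:75847905-75848034), which lies within Tpt1 on the same strand, had 40, 7, 21 and 12 reads in DKOITD and 0 in ITD (4.08 ± 0.60, limma, adjusted p = 0.0364). Snord83b (chr15:80078498-80078591), within Rpl3, had 6, 2, 10 and 7 reads against 0 (3.11 ± 0.48, adjusted p = 0.0364). Smart-seq2 does not mark strand, and reads of these RNAs cannot be told apart from reads of their host genes. The same holds for Tnfsf9, Grap, Chn2, Sdhaf1, Crtac1 and Hk3, each of which overlaps an annotated gene on the opposite strand. Reads of Clec10a and Slfn4 may also be shared with close paralogs.

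Genes of granulocytes stood among the 6 that fell. Cd63 (chr10:128900989-128912822), a tetraspanin of neutrophil primary granules and of lysosomes, was at 43.1, 45.5, 48.5 and 72.0 RPKM in DKOITD against 273 and 245 in ITD. It fell by 2.31 ± 0.35 on the log2 scale (limma, adjusted p = 0.0364), and WT was at 190.0 to 387. Hk3 (chr13:55005985-55021385), the hexokinase of myeloid cells, was at 8.37, 9.87, 6.36 and 19.3 RPKM against 66.1 and 58.7 (-2.51 ± 0.42, adjusted p = 0.0393). Slfn4 (chr11:83175186-83190216), a Schlafen gene of myeloid cells that interferon induces, was at 42.9, 19.8, 14.1 and 73.3 RPKM against 202 and 435 (-3.23 ± 0.56, adjusted p = 0.0428). DKOITD 4 was the highest DKOITD library in Cd63, Hk3 and Slfn4, below both ITD libraries. The lincRNA Gm19705 (chr1:136670769-136690804) was at 2.03, 6.15, 3.59 and 7.37 RPKM against 45.8 and 55.5 (-3.26 ± 0.45, adjusted p = 0.0334). Ggt1 (chr10:75561604-75586200), a glutathione-cleaving enzyme, was listed at 0 in all DKOITD libraries and was at 5.90 and 7.25 RPKM in ITD (-2.92 ± 0.48, adjusted p = 0.0372). Crtac1 (chr19:42283035-42431783), a secreted matrix protein, was at 0 in DKOITD 1 to 3, at 0.434 in DKOITD 4 and at 5.21 and 10.9 in ITD (-2.97 ± 0.49, adjusted p = 0.0372). WT lay between DKOITD and ITD in both, at 0.683 to 2.80 RPKM for Ggt1 and 1.25 to 2.18 for Crtac1.

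Beside WT, 16 of the 17 genes that rose (all but Renbp) and 4 of the 6 that fell (all but Ggt1 and Crtac1) also passed the threshold the same way in DKOITD. These comparisons share the DKOITD libraries. Of all genes, 12.7% passed in DKOITD against WT and 0.0092% in ITD against WT, with none of the 23 among the latter. Of the 17 genes that rose, 10 were listed at 0 in both ITD libraries and 6 of these also in all WT libraries (Ccr7, Ccl22, Plxdc2, P2ry10, Socs2 and Snord83b). Over all kept genes, 246 were listed at 0 in both ITD libraries and above 0 in all DKOITD libraries, and 19 the reverse. The first count needs 0 in 2 libraries and the second needs 0 in 4, so the counts cannot be set against each other. A gene at 0 in all ITD and WT libraries was kept only through its DKOITD values.

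Dendritic cell genes were mostly higher in DKOITD, described here by counts and medians beside those of all 10868 kept genes. Of all kept genes, 0.212% were past the threshold, 978 were higher and 723 lower at an unadjusted p under 0.05, and the median was 0.11. The lists were chosen with earlier results of these data known, so these counts do not test them. Of 29 conventional dendritic cell genes, 1 was past the threshold (Clec10a, higher), 16 were higher and 2 lower at an unadjusted p under 0.05, and the median difference was 1.54. The mean log2(RPKM + 1) of that list was 5.14, 4.38, 5.09 and 4.63 in DKOITD and 3.14 and 3.74 in ITD, so the groups did not overlap. Cst3, a protease inhibitor abundant in dendritic cells, was at 10069.8, 4769, 7301 and 4369 RPKM in DKOITD against 1565 and 1866 (1.87, limma, adjusted p = 0.0639). Itgax, the CD11c integrin chain, was at 11.9, 8.43, 12.2 and 12.8 RPKM against 0.900 and 1.44 (2.50, adjusted p = 0.0652). Kmo, a tryptophan-degrading enzyme, was at 66.2, 14.2, 62.2 and 53.7 RPKM against 1.96 and 6.04 (3.25, adjusted p = 0.0584). None of these 3 passed, and in each every DKOITD library lay above both ITD libraries. Zbtb46, a transcription factor of conventional dendritic cells, was at 8.38, 0.0820, 9.26 and 2.44 RPKM and listed at 0 in ITD and WT (2.12, adjusted p = 0.205). Of 31 genes of dendritic cell maturation and migration, 4 were past the threshold, all higher (Ccr7, Ccl22, Tnfsf9 and Socs2), 15 were higher and 0 lower at an unadjusted p under 0.05, and the median was 1.68.

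Antigen presentation and plasmacytoid genes held no call. Of 18 genes of MHC class II and its loading, 0 were past the threshold in limma, 10 were higher and 0 lower at an unadjusted p under 0.05, and the median was 1.68. Ifi30, a lysosomal reductase that prepares antigens, was at 1060.5, 475, 1033 and 889 RPKM in DKOITD against 219 and 304 (1.67, adjusted p = 0.0613). Cd74, the invariant chain, was at 12463, 3404, 12963 and 12122 RPKM against 1782 and 4183 (1.73, adjusted p = 0.373), so DKOITD 2 lay within the ITD range. H2-DMa, a peptide exchange chain, was at 690.3, 232, 554 and 598 RPKM against 94.7 and 229 (1.70, adjusted p = 0.126). DKOITD 2 was the lowest DKOITD library in Ifi30, Cd74 and H2-DMa. Its list mean was 5.94, against 7.25 to 7.42 in the other DKOITD libraries and 4.74 and 6.11 in ITD. Of 17 plasmacytoid dendritic cell genes, 0 were past the threshold in limma, 3 were higher and 0 lower at an unadjusted p under 0.05, and the median was 0.34. Spib, a transcription factor of plasmacytoid cells, was at 11.1, 1.47, 5.44 and 2.30 RPKM and at 0 in ITD (2.33, adjusted p = 0.0935). Siglech, the receptor that marks plasmacytoid cells, was at most 5.81 RPKM in DKOITD and 0 in ITD.

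Granule genes of neutrophils were mostly lower in DKOITD. Of 47 genes of secondary and tertiary granules and neutrophil maturation, 0 were past the threshold in limma, 3 were higher and 34 lower at an unadjusted p under 0.05, and the median was -1.94. The list mean was 6.29, 7.91, 5.98 and 7.80 in DKOITD against 8.54 and 8.73 in ITD, with DKOITD 2 and 4 nearer to ITD. Camp, the cathelicidin precursor, was at 4062, 11964, 4203 and 19398 RPKM against 66118 and 56288 (-2.94, adjusted p = 0.0578). Mmp9, a gelatinase of tertiary granules, was at 6.6, 20.3, 5.06 and 116 RPKM against 355 and 448 (-4.44, adjusted p = 0.0578). Ltf, lactoferrin, was at 433, 1117, 418 and 2029 RPKM against 4019 and 4949 (-2.48, adjusted p = 0.0689). In Camp, Mmp9 and Ltf every DKOITD library was below both ITD libraries, and DKOITD 4 was the highest. Of 24 genes of primary granules and promyelocytes, 2 were lower past the threshold (Cd63 and Hk3), which is 8.33% against 0.212% of all kept genes. In that list 1 was higher and 12 lower at an unadjusted p under 0.05, and the median was -1.02, or 0.05 with columns scaled to the same sum of RPKM. The medians of the secondary granule, conventional dendritic cell, maturation and MHC class II lists kept their sign under all 24 alternatives. This was not particular to them. The medians of the plasmacytoid, monocyte, B lineage, NK, PRC2, developmental regulator and eosinophil, basophil and mast cell lists also kept theirs. Among the members are genes kept only through DKOITD, such as Ccr7, Cd22 and Cdkn2b. Mpo, the peroxidase of promyelocytes, was at 455, 538, 1131 and 26.2 RPKM in DKOITD and 265 and 5.36 in ITD (2.84, adjusted p = 0.586). Elane, neutrophil elastase, likewise overlapped between the groups, at 945, 921, 453 and 196 RPKM against 2115 and 241 (-0.44, adjusted p = 0.897). The summed RPKM of 4 defining neutrophil markers was 30598 to 239323 in DKOITD and 599119 and 651229 in ITD, and that of 5 conventional dendritic cell markers 3058 to 15107 against 1403 and 4122, with none of these 9 at 0 in all DKOITD libraries. Their part in the calls was not tested.

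**Figure D4:**
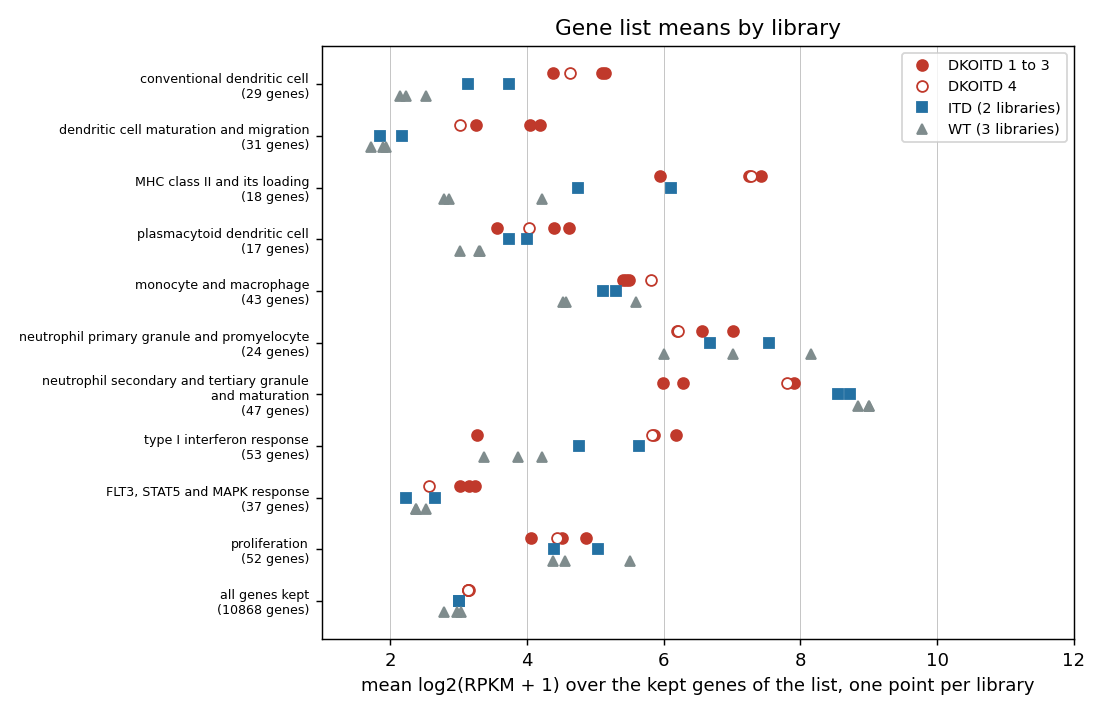
The mean log2(RPKM + 1) over the kept genes of each list is plotted per library, with DKOITD in red (DKOITD 4 open), ITD in blue and WT in grey. The DKOITD libraries lie above both ITD libraries in the 2 upper dendritic cell lists and below both in the list of neutrophil secondary and tertiary granules, and the row of all 10868 genes is at 3.13 to 3.16 in DKOITD and 3.014 and 3.003 in ITD.

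Monocyte and lymphoid lists held members on both sides. Of 43 monocyte and macrophage genes, 0 were past the threshold in limma, 7 were higher and 3 lower at an unadjusted p under 0.05, and the median was 0.32. Mrc1, the mannose receptor, was at 7.54, 41.9, 24.3 and 37.7 RPKM against 1.20 and 2.44 (3.15, adjusted p = 0.0613). Ly6c2, a surface antigen of inflammatory monocytes, was at 1763, 1725, 1176 and 2333 RPKM against 3192 and 3297 (-0.93, adjusted p = 0.159). Of 19 kept genes of early lymphoid and early thymic progenitors, 1 was past the threshold (Ccr7, higher), which is 5.26% against 0.212% of all kept genes. Ccr7 is also counted in the maturation list. Of the 19 genes, 5 were higher and 3 lower at an unadjusted p under 0.05. The median was 0.20, or -0.02 after quantile normalization and -0.07 without DKOITD 1. In that list Il7r, the interleukin receptor chain of lymphoid progenitors, was at 6.40, 16.3, 4.06 and 2.02 RPKM and listed at 0 in ITD and WT (2.73, adjusted p = 0.067). Only 5 of 20 T lineage, 7 of 20 B lineage and 4 of 18 NK genes were kept, with 0 past the threshold in limma. At an unadjusted p under 0.05, 2, 4 and 3 of them were higher and 1 in each list was lower. The medians were 0.95, 1.76 and 3.26, with Cd4 and Cd22 at the T and B medians. Cd4 and Tox, the higher T lineage genes, were at 0 in ITD and WT. The B lineage genes Fcrla, Bach2 and Cd22 were at most 0.131 RPKM there. Kept only through DKOITD, these genes could only count as higher. Cd3d, the lower T lineage gene, was at 0.125, 1.23, 0.0695 and 4.36 RPKM in DKOITD against 17.6 and 2.44 (-2.04). The 3 higher NK genes were Ccl5, Klrk1 and Klrd1, and the lower 1 was Nkg7. Klrd1, an NK receptor chain, was at 124, 15.8, 72.0 and 82.2 RPKM in DKOITD against 0 and 14.9 in ITD (3.91, limma, adjusted p = 0.211). In WT, Klrd1 was at 0, 39.9 and 0 RPKM, so WT 2 lay above DKOITD 2. Cd79b, a signalling chain of the B cell receptor, was at 64.2, 57.5, 70.7 and 42.1 RPKM against 7.65 and 22.1 (2.05, adjusted p = 0.0757), while Cd79a, its partner chain, was at most 0.603 RPKM in DKOITD. Of 13 stem and progenitor genes, 0 were past the threshold, with 3 higher and 2 lower at an unadjusted p under 0.05, among them Cd34 at 6.23, 6.89, 11.6 and 4.63 RPKM against 1.54 and 0 (2.32, adjusted p = 0.0714). Of 8 erythroid and megakaryocyte genes 0 passed (0 higher and 1 lower at an unadjusted p under 0.05), and of 6 eosinophil, basophil and mast cell genes 0 passed (1 and 1).

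Of the lists tied to the alleles, the FLT3, STAT5 and MAPK response held calls. Of its 37 kept genes, 2 were past the threshold (Socs2 and Grap, both higher), which is 5.41% against 0.212% of all kept genes. Socs2 is also counted in the maturation list. The lists were chosen with earlier results of these data known, so this share does not test the list. At an unadjusted p under 0.05, 9 of the 37 were higher and 4 lower, and the median was 0.53. With the series of label numbers as a term, which sets DKOITD 4 alone against ITD, the median was -0.13. In that list Ccnd2, a cyclin of the G1 phase, was at 12.6, 7.39, 14.6 and 4.35 RPKM against 0.222 and 1.11 (2.62, limma, adjusted p = 0.0652). Dusp6, a phosphatase of ERK, was at 11.1, 7.14, 6.67 and 24.7 RPKM against 63.7 and 51.8 (-2.31, adjusted p = 0.0639). Of 11 PRC2 genes, 0 were past the threshold and 0 had an unadjusted p under 0.05. Of 52 developmental regulators bound by PRC2, 5 were kept and 0 were past the threshold in limma. At an unadjusted p under 0.05, 3 were higher, Cdkn2b, Eya1 and Cdkn1a. Cdkn2b was listed at 0 in ITD and WT, and Eya1 at 0 in ITD and at most 0.142 RPKM in WT. Both were kept only through DKOITD, so they could only count as higher. Cdkn1a, a cell cycle inhibitor gene, was at 16.4, 16.2, 40.9 and 14.4 RPKM against 4.63 and 11.1 (1.35, limma, adjusted p = 0.233). Of 18 RUNX factors and partners, 0 were past the threshold in limma, with 3 higher and 2 lower at an unadjusted p under 0.05. Ets1, a factor that binds DNA together with Runx1, was at 0.229, 2.27, 1.48 and 11.9 RPKM against 32.5 and 23.8 (-3.10, adjusted p = 0.0778). Cbfa2t3, a corepressor, was at 21.4, 7.93, 16.9 and 23.02 RPKM against 1.42 and 4.50 (2.23, adjusted p = 0.109). In both Ets1 and Cbfa2t3 the groups did not overlap.

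Among lists of cell state, the migration and Schlafen lists held calls. Of 52 proliferation genes, 0 passed in limma (1 higher and 3 lower at an unadjusted p under 0.05) and the median was -0.33. Mki67, a proliferation antigen, was at 26.5, 13.5, 14.2 and 24.5 RPKM against 28.8 and 24.4 (-0.47, adjusted p = 0.627). Of 53 type I interferon genes, 0 passed (1 higher and 0 lower at an unadjusted p under 0.05) and the median was 0.04, with a range of -0.43 to 1.03 over the alternatives. DKOITD 2 stood apart in that list, with a mean of 3.27 against 5.84 to 6.18 in the other DKOITD libraries and 4.76 and 5.64 in ITD. Ifit1, an interferon-induced RNA-binding protein, was at 69.5, 1.76, 54.7 and 53.1 RPKM against 14.3 and 69.6. Of 31 immediate early and stress genes, 0 passed (6 higher and 1 lower at an unadjusted p under 0.05), and Fos was at 33.3, 190.0, 113 and 8.73 RPKM against 22.9 and 40.6. Of 29 chemokine receptor and migration genes, 3 passed, all higher (Ccr7 and P2ry10 among them), which is 10.3% against 0.212% of all kept genes. Ccr7 is also counted in the maturation and early lymphoid lists. Of the 29 genes, 7 were higher and 7 lower at an unadjusted p under 0.05, and the median was -0.16. Of 8 Schlafen genes, 1 was lower past the threshold (Slfn4, 12.5% of this short list), and 0 were higher and 2 lower at an unadjusted p under 0.05. Under the scaling to the same sum of RPKM, to recovered reads or with voom, the medians of the proliferation, migration and Schlafen lists were above 0.

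Just short of the threshold, 23 higher and 24 lower genes had an adjusted p from 0.05 to under 0.06, and 149 and 147 from 0.05 to under 0.1. The 15 genes with the smallest p on each side were taken from those whose groups did not overlap. Among them, the widest higher differences belonged to Ccl5, a chemokine that attracts T cells, and Cd83, a marker of mature dendritic cells. Ccl5 was at 765, 124, 498 and 60.6 RPKM in DKOITD and at 0 and 0.161 in ITD (7.76 ± 1.51, limma, adjusted p = 0.0578). In WT, Ccl5 was at 0, 78.6 and 0 RPKM, so WT 2 lay above DKOITD 4. Cd83 was at 158, 55.1, 196 and 46.4 RPKM against 8.94 and 0 (4.92 ± 0.91, adjusted p = 0.0578). Both had their lowest DKOITD value in DKOITD 4. Aldh1a2, which makes retinoic acid, was at 4.58, 5.56, 11.7 and 3.51 RPKM against 0 in ITD (2.76 ± 0.52). Srm, which makes spermidine, was at 17.6, 44.3, 15.9 and 12.1 RPKM against 0 (4.38 ± 0.82). Others on the higher side were Fam105a, Slc14a1, Hist3h2ba, Fam203a, Ckb, Pdia5, Klri1, Hddc2, Hmgn1 and Fhit. On the lower side, G0s2, an inhibitor of triglyceride breakdown, was at 22.0, 10.1, 6.14 and 60.6 RPKM against 198 and 211 (-3.49 ± 0.66). Pgd, an enzyme of the pentose phosphate pathway, was at 42.2, 70.8, 36.7 and 84.5 RPKM against 226 and 243 (-2.07 ± 0.39). Trem3, an activating receptor of myeloid cells, was at 73.6, 236, 34.4 and 211 RPKM against 873 and 899 (-3.05 ± 0.62). In G0s2, Pgd and Trem3 the DKOITD libraries were all below ITD, which the choice of the genes fixes. Each of the 30 genes had an adjusted p of 0.0578 in limma. The other 12 were Grina, Pilrb2, Ubd, Camp, Ly6g5b, Pdlim7, Adam8, Mgst2, Retnlb, Acap1, Cd81 and Vamp5.

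**Figure D5:**
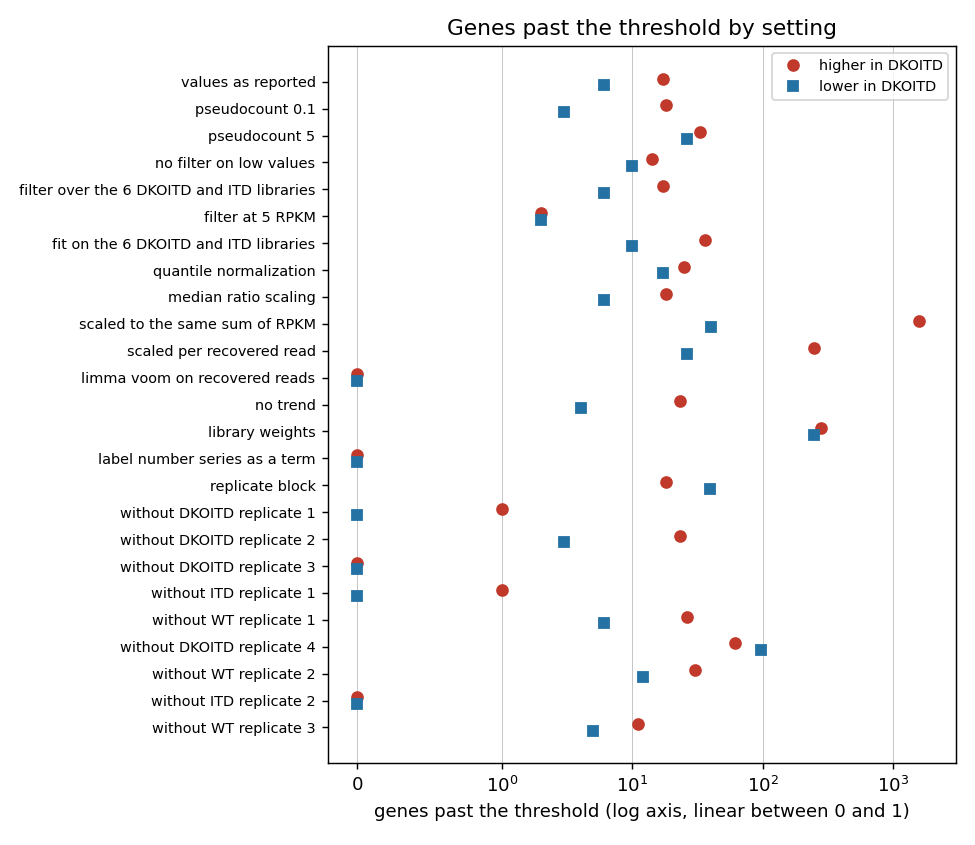
The number of genes past the threshold is plotted for the values as reported and for each of the 24 alternatives, red for genes higher and blue for genes lower in DKOITD, on an axis that is logarithmic above 1 and linear between 0 and 1. The counts run from 0 in both directions (4 alternatives) to 1561 higher and 248 lower, against 17 and 6 as reported.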

How the data were processed

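The authors deposited RPKM per gene symbol for 9 libraries; per the submitters' processing notes, the tools were STAR 2.4.2a, SAMtools 1.1 and HTSeq 0.6.1p1 (roles not stated) and the genome build was mm10. The scaling of RPKM and the annotation are details not given in the sources used here. Groups and replicate numbers came from the sample titles. After keeping genes with at least 1 RPKM in at least 2 libraries, limma 3.58.1 (R 4.3.3) was run on log2(RPKM + 1) (eBayes with a trend, all 9 libraries, genotype group as the only factor), two-sided, with Benjamini-Hochberg adjustment at 0.05. The fit was also run on simulated normal values with the same spread in every group. Those hold no group listed at 0, so they do not cover the called genes that are at 0 in ITD. The p-values reflect the spread between these libraries alone, which may be technical. Differences on this scale understate changes of low genes.

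Whole reads were recovered from the steps of the RPKM values (99.99% of values above 0, to within 0.01 reads, in 15565 of 15566 genes) and give the depth. Reads carry no molecular identifiers, so they are not independent molecules. The limma voom fit on these reads called 0 genes (1608 higher and 345 lower at an unadjusted p under 0.05). Named are the genes of the alleles, the sort marker and the Cre driver, every gene past the threshold, the 15 genes nearest to it on each side without overlap (given as values, without predicted models, ribosomal copies and small RNAs), and in each of 23 lists the called members or up to 4 with the smallest p and 2 defining markers; 1 gene past the threshold and 1 near it are not reported here. The genes and lists were chosen with earlier results of these data known. Positions were matched by symbol to GENCODE vM21 (mm10 coordinates).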

Additional observations from a re-analysis of the deposited data

Results flagged for a closer look

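In the DKOITD group, the gap of the highest or lowest library to its nearest neighbour was divided by the range of the 4 libraries (Dixon's ratio, set against its 95% critical value for 4 samples) for 84 values, and 7 were above it, where chance gives about 1 in 20. The ratio was 1 for Crtac1, at 0.434 RPKM (17 reads) in DKOITD 4 and 0 in the others, and 1 for Retnlb, a secreted resistin-like protein, at 0.119 RPKM (1 read) in DKOITD 1 and 0 in the others. With 3 libraries at 0 the ratio is 1 whatever the value of the other library, so it says nothing about the size of these values. For Srm it was 0.8292, with DKOITD 2 at 44.3 RPKM and the others at 12.1 to 17.6. For Ly6g5b, a gene of the Ly6 family, it was 0.850, with DKOITD 4 at 5.19 RPKM and the others at 0 to 0.779. DKOITD 2 had a low mean log2(RPKM + 1) of the MHC class II list, 5.94 against 7.25 to 7.42 (ratio 0.887), and of the type I interferon list, 3.27 against 5.84 to 6.18 (ratio 0.883), and it is also the library with the fewest reads (2825732). Over all kept genes the mean was 3.16 in DKOITD 3 and 3.13 to 3.14 in the others (ratio 0.875).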

How the results depend on the processing

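As reported, 17 genes were higher and 6 lower in DKOITD. The counts were 18 and 3 with a pseudocount of 0.1, 33 and 26 with 5, 14 and 10 with no filter on low values, 2 and 2 with a filter at 5 RPKM (fewer genes tested), 36 and 10 in a fit on the 6 DKOITD and ITD libraries, 25 and 17 after quantile normalization, 1561 and 40 with columns scaled to the same sum, 248 and 26 scaled to recovered reads, 0 and 0 with limma voom (1608 and 345 at an unadjusted p under 0.05), 278 and 248 with library weights, and 0 and 0 with a term for the series of label numbers (336 and 144). The term for the series of label numbers leaves DKOITD 4 alone against ITD, so its counts do not show what the series does. For these changes the cause was not tested. Leaving out 1 library in turn gave 0 to 61 higher and 0 to 96 lower genes. With a replicate block the counts were 18 and 39, but the labels do not say that equal replicate numbers pair the samples. Deviations of same-numbered libraries correlated at 0.0167 and -0.0444, those of other pairs between -0.0594 and 0.0594. The deviations of the 2 ITD libraries mirror each other, so these correlations cannot decide whether samples are paired. A filter over 6 libraries (17 and 6), median ratio scaling (18 and 6) and a fit with no trend (23 and 4) stayed within 1.5 times the reported counts. With 2 ITD libraries of 100 cells each, genes read from few reads are the least certain. A gene at 0 there was not detected in those libraries, which does not show that it is absent.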
